A study of Homo sapiens with 18 samples.

Results

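The genes described here are the matrix metalloproteinases (MMP), the membrane-anchored disintegrin metalloproteinases (ADAM), the secreted ADAMTS proteases and the tissue inhibitors of metalloproteinases (TIMP). Members were picked by a rule on names: a symbol made of MMP, ADAM or ADAMTS and a number, or TIMP1 to TIMP4. The choice was made with earlier results of these data known. The rule found 67 symbols on 68 of the 78724 rows of the count table: 22 MMP, 22 ADAM, 19 ADAMTS and 4 TIMP genes. Of these, 42 passed the filter on low counts and were tested, 14 had some counts but too few, and the 12 remaining rows were at 0 counts in all 18 libraries.

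Metalloproteinases use a zinc ion to cut proteins outside the cell or at its surface. MMPs cleave collagens and other matrix proteins and are made as inactive precursors, ADAMs shed growth factors and receptors from membranes, ADAMTS enzymes cut proteoglycans and trim procollagens, and TIMPs block the active sites of many of these enzymes. In the human endometrium the tissue breakdown of menstruation involves MMPs, and progesterone is known to hold several of them down in stromal cells.

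Messenger RNA was measured in THESC, a line of human endometrial stromal cells immortalised with telomerase, after 72 hours with 1 µM medroxyprogesterone acetate (MPA, a synthetic progestin) or with 0.01% ethanol as vehicle. NT cells carry a non-targeting guide RNA and are labelled WT, U1U2 cells are labelled as having equivalent amounts of the progesterone receptor isoforms A and B, and promoter cells are labelled as dominated by isoform B. The guides of the last 2 lines activate the receptor gene PGR, and all 3 lines are CRISPR-engineered, were kept in blasticidin before the experiment, and received low-serum medium and then OptiMEM with charcoal-stripped serum. Each of the 6 groups of line and treatment holds 3 libraries, so every comparison of groups sets 3 against 3. The labels do not say whether the replicates were separate cultures or whether a line is 1 clone, so the p-values reflect only how far these libraries spread, and part of that spread may be technical.

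Libraries held 11932474 to 33418643 counts, and NT vehicle replicate 1 was the shallowest. In CPM (counts scaled to a library of 1000000), PGR lay at no more than 153 CPM in NT vehicle. It lay between 531 and 674 CPM in U1U2 vehicle and between 395 and 475 CPM in promoter vehicle. With MPA, PGR lay at 76.2 to 95.1 CPM in NT, 226 to 291 CPM in U1U2 and 264 to 303 CPM in promoter cells. There the U1U2 and promoter ranges overlapped. The labels of activated lines were thus borne out, and counts per gene do not separate the isoforms. The 5 stromal markers VIM, PDGFRB, COL1A1, COL3A1 and THY1 summed to 6185 to 10475 CPM. Endothelial markers (PECAM1, CDH5, VWF and KDR) summed to at most 16 counts in a library, and CDH1, CD3E and S100A8 had at most 6 counts. The leukocyte marker PTPRC (33 to 143 counts) and the epithelial markers KRT18 (105 to 460 counts), KRT8 (35 to 152 counts), MUC1 (48 to 166 counts) and EPCAM (3 to 34 counts) were present at low levels.

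Per base of exon, TIMP2 was the most abundant of these transcripts, at a mean of 311 RPKM (CPM divided by the exon length in kilobases) over the 18 libraries. ADAM9 (211 RPKM), MMP2 (139 RPKM), ADAMTS1 (108 RPKM), ADAM12 (81.7 RPKM), MMP14 (55.2 RPKM) and TIMP3 (53.4 RPKM) followed. TIMP2, ADAM9, MMP2 and ADAMTS1 together made up 62.1% to 70.2% of the summed RPKM of all members, depending on the library. In NT vehicle the summed levels were 440.4 ± 60.5 RPKM (SD, n = 3) for TIMPs, 366 ± 8.26 RPKM for ADAMs, 250.4 ± 56.9 RPKM for MMPs and 137 ± 7.05 RPKM for ADAMTS genes. Across the other lines in vehicle the MMP sum was 263 ± 30.8 in U1U2 and 279 ± 25.4 in promoter cells, and with MPA 193 ± 25.7 in NT, 169 ± 26.9 in U1U2 and 165 ± 18 in promoter cells. The TIMP sum was 435 ± 64.3, 366 ± 44.8 and 340.0 ± 12 RPKM with MPA in NT, U1U2 and promoter cells. At the other end, 14 tested members averaged under 1 CPM, and 11 averaged at least 100 CPM. The plot of levels per length shows that neighbours in this order often overlapped: MMP14 (43.1 to 71.0 RPKM) and TIMP3 (42.9 to 64.0 RPKM) covered nearly the same range.

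**Figure D1:**
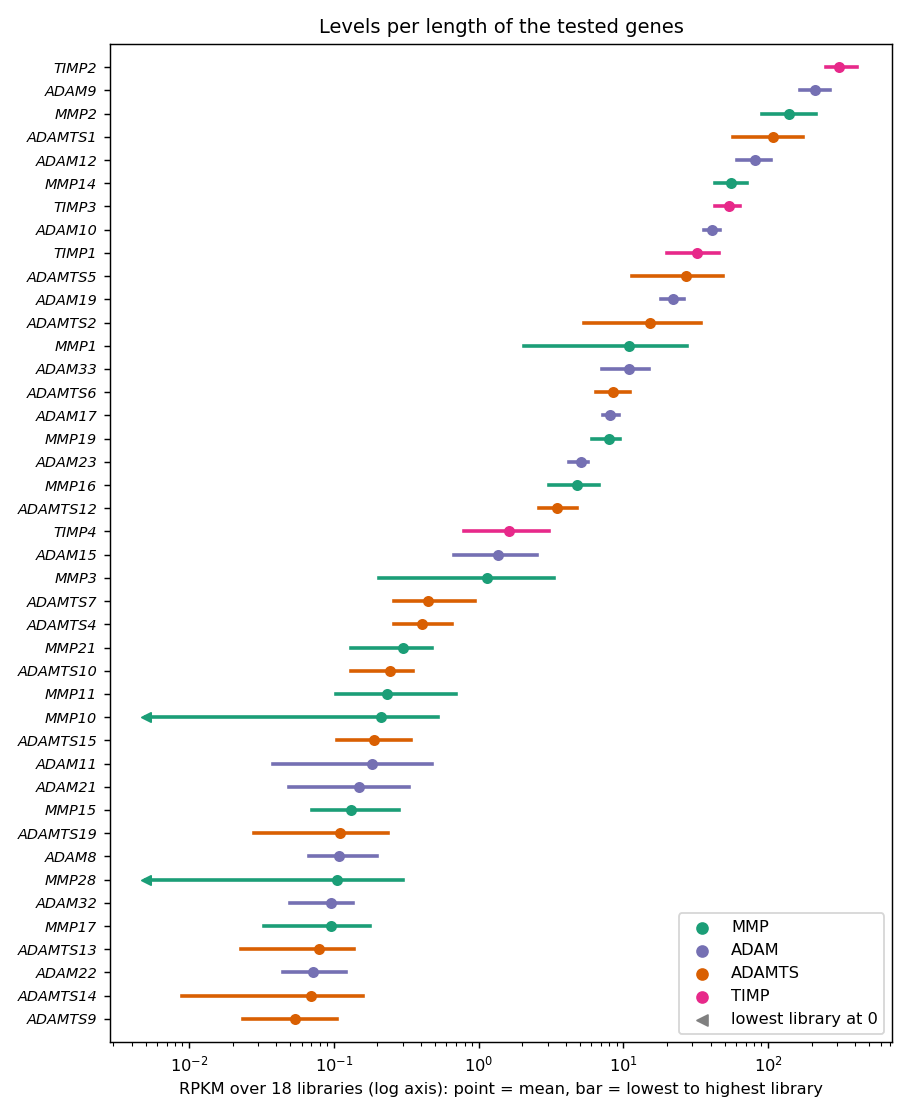
RPKM (log axis) of the 42 tested members, ordered by their mean over 18 libraries; points are means, bars run from the lowest to the highest library, colours give the family and a triangle marks a lowest library at 0. TIMP2 lies at the top with a mean of 311 RPKM and ADAMTS9 at the bottom with 0.0536 RPKM; MMP1, ADAMTS2 and ADAMTS5 have longer bars than their neighbours.

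MPA changed 10 of the 42 tested members in the NT line, 18 in the U1U2 line and 17 in the promoter line (edgeR quasi-likelihood test, Benjamini-Hochberg adjusted p under 0.05 over 15558 genes). These counts are 23.8%, 42.9% and 40.5% of the tested members, and the share of all tested genes called was 5.93%, 11.7% and 15.0% in the same comparisons. In NT cells 3 members rose (2.44% of all genes were called higher) and 7 fell (3.48% lower). In U1U2 cells 7 rose (5.44%) and 11 fell (6.22%), and in promoter cells 5 rose (6.63%) and 12 fell (8.40%). The median log2 fold change over tested members was 0.00, -0.06 and -0.21 in NT, U1U2 and promoter cells, beside 0.02, 0.03 and 0.00 over all tested genes. In all 3 lines, MMP1, MMP3, MMP16, ADAMTS5 and ADAMTS6 fell and ADAMTS1 and ADAMTS2 rose. MMP10 and ADAMTS19 were also called lower in all 3 lines, but they were tested only because their vehicle libraries passed the filter. The 3 comparisons use separate libraries. Without promoter vehicle replicate 1 the promoter count was 11. By family, 4 of 12 tested MMPs fell in NT cells and 5 in each of the other lines, against 3, 4 and 5 of 13 ADAMTS, 0, 2 and 2 of 13 ADAM and none of 4 TIMP genes. Of the 42, 5 reached the filter (0.437 CPM in at least 3 libraries) through vehicle alone (MMP10, MMP17, ADAM21, ADAMTS14 and ADAMTS19) and 2 through MPA alone (MMP28 and ADAMTS9), so their direction was partly set by the filter. Among the other 35, 3 rose and 5 fell in NT, 5 rose and 9 fell in U1U2 and 4 rose and 10 fell in promoter cells.

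**Figure D2:**
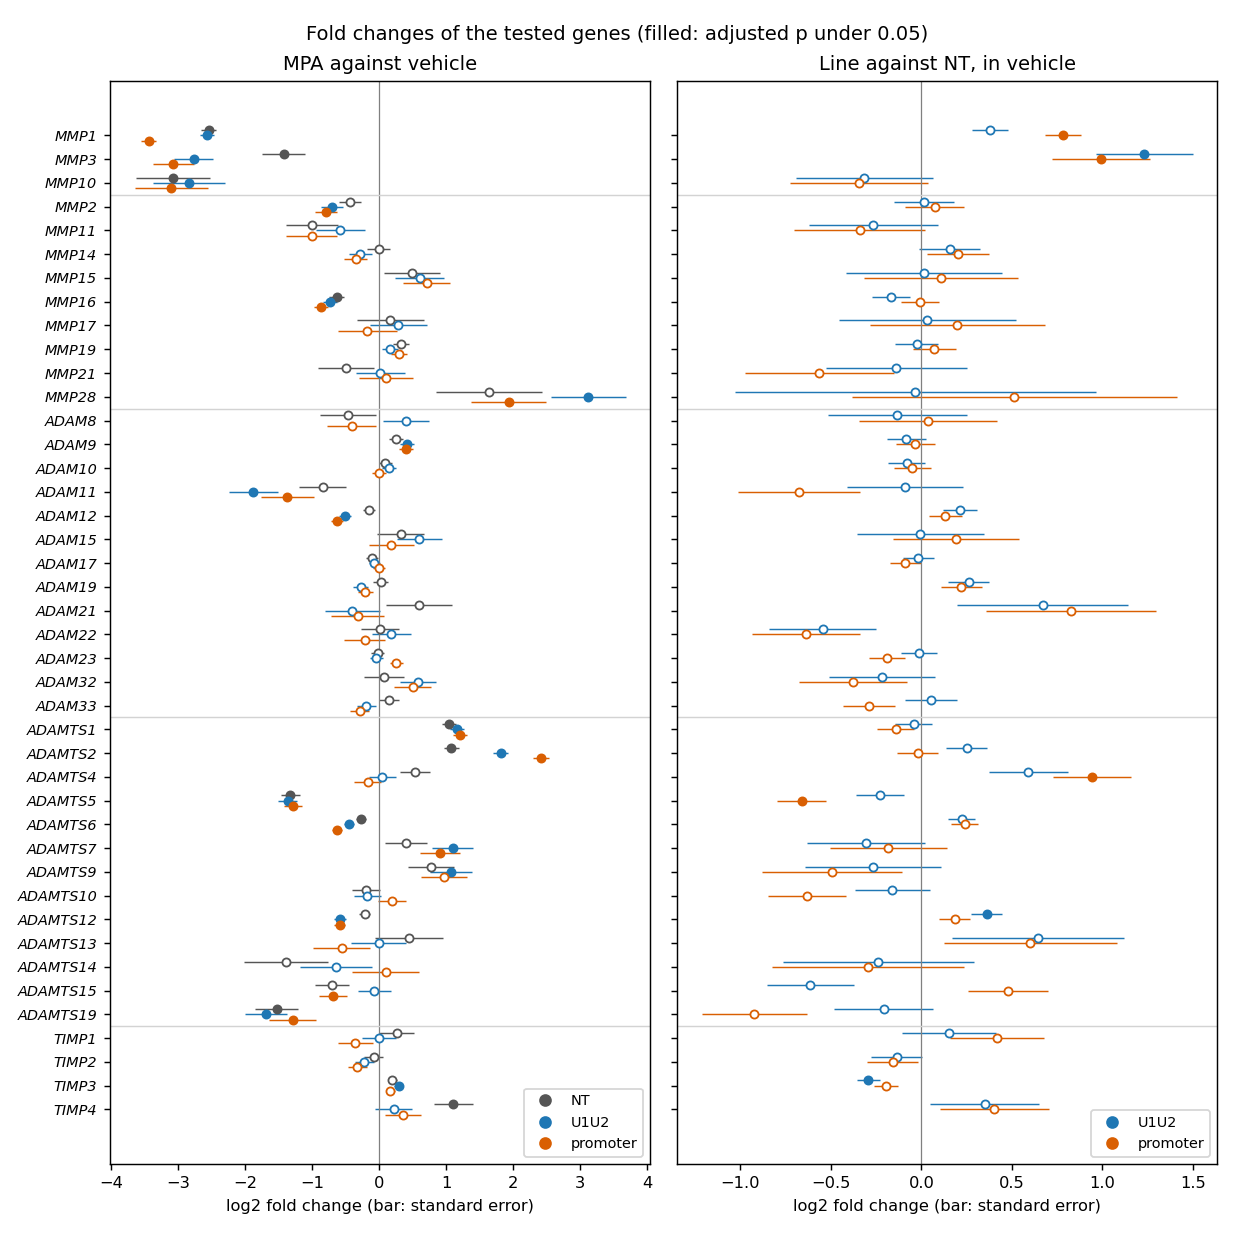
Log2 fold changes of the 42 tested members with their standard errors, for MPA against vehicle in each line (left) and for the U1U2 or promoter line against NT cells in vehicle (right); filled points have an adjusted p under 0.05. The 11q22 genes MMP1, MMP3 and MMP10 lie under MPA between -3.44 and -1.43, and the 4 TIMP genes between -0.35 and 1.11.

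Between lines, 3 members differed in vehicle between U1U2 and NT cells (1.14% of all genes), 4 between promoter and NT cells (6.75%) and 1 between promoter and U1U2 cells (0.784%). The first were MMP3 and ADAMTS12, higher, and TIMP3, lower. The second were MMP1, MMP3 and ADAMTS4, higher, and ADAMTS5, lower, and the third was ADAMTS15. In MPA, 1 member differed between U1U2 and NT cells (ADAMTS2; 1.72% of all genes) and 4 between promoter and NT cells (ADAMTS2 higher, and ADAM12, ADAM33 and ADAMTS5 lower; 4.15%). None differed between promoter and U1U2 cells in MPA (0.328% of all genes, 6 members at an unadjusted p under 0.05, 0 with DESeq2). Without NT vehicle replicate 3 the U1U2 count in vehicle was 1, and without NT vehicle replicate 2 or U1U2 vehicle replicate 2 or 3 it was 0. Without NT vehicle replicate 2 or promoter vehicle replicate 1 the promoter count against NT vehicle was 2, and without NT MPA replicate 1 or promoter MPA replicate 3 the count against NT MPA was 2. The single call between promoter and U1U2 vehicle was lost without U1U2 vehicle replicate 2 or 3 or promoter vehicle replicate 1 or 3. The U1U2 and promoter lines are both set against the same NT libraries. The response to MPA differed between promoter and NT cells for ADAMTS2 and MMP1 (1.56% of all genes). It differed for no member between U1U2 and NT cells (0.219% of all genes, 5 members at an unadjusted p under 0.05, 1 with DESeq2) or between promoter and U1U2 cells (0.0129%, 3 members at an unadjusted p under 0.05, 1 with DESeq2).

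The first group is the MMP cluster of chromosome band 11q22, where 9 member genes lie within 0.435 Mb (chr11:102520508-102955734, GRCh38), all on the minus strand and all starting 1.40 to 1.83 Mb from the PGR start site. It holds the interstitial collagenase MMP1, the neutrophil collagenase MMP8, collagenase 3 (MMP13), the stromelysins MMP3 and MMP10, matrilysin (MMP7), macrophage elastase (MMP12), enamelysin (MMP20) and MMP27. MMP1, MMP3 and MMP10 passed the filter, MMP10 through its vehicle libraries alone. MMP1 and MMP3 fell with MPA in all 3 lines, with log2 fold changes of -2.54 and -1.43 in NT, -2.57 and -2.77 in U1U2 and -3.44 and -3.07 in promoter cells. The other 6 gave too few counts to test: MMP7 and MMP12 had 33 counts each over the 18 libraries, MMP8 had 8 and MMP13 3, while MMP20 and MMP27 were at 0. MMP7 had 4, 3 and 14 counts in the NT, U1U2 and promoter vehicle groups and 4, 4 and 4 in the matching MPA groups, and MMP12 had 3, 15 and 11 against 1, 3 and 0.

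**Figure D3:**
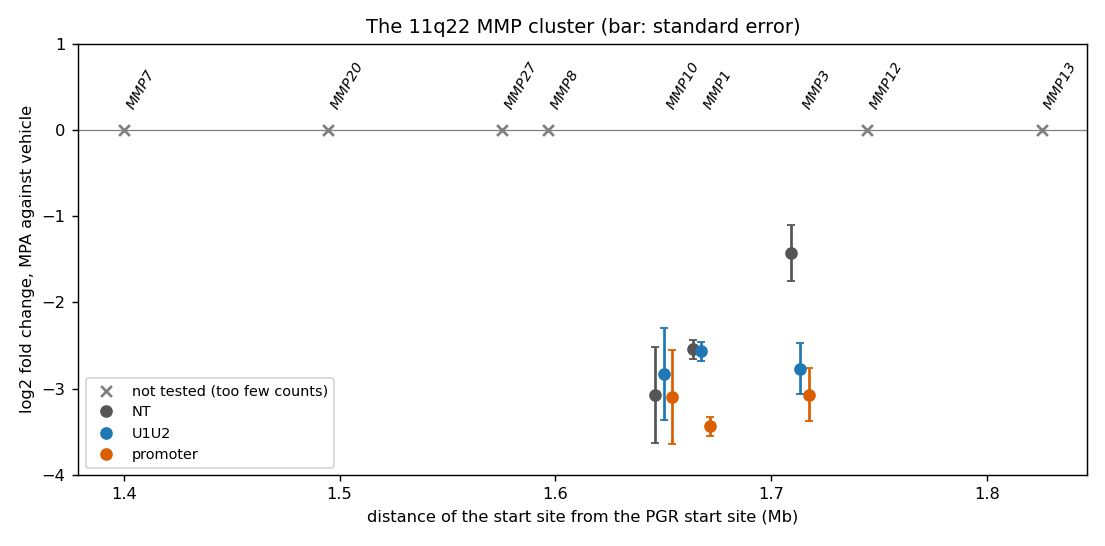
Log2 fold change under MPA with its standard error (vertical axis) against the distance of each 11q22 MMP start site from the PGR start site in Mb (horizontal axis), one colour per line and points set slightly apart for clarity; crosses at 0 mark genes with too few counts to test. The 3 tested genes sit next to each other in the middle of the cluster and lie between -3.44 and -1.43.

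Promoter sequence from RefSeq (GRCh38.p14) was at hand for 38 of the 67 symbols, 5 of them in the cluster. MMP1 and MMP3 were not among the 38, so their promoters were not searched for any motif. The AP-1 motif TGANTCA, which reads the same on both strands, lay within the 250 bases before the start of 4 of the 38 (MMP7, MMP10, MMP20 and ADAMTS12), and in 6.57% of all 35116 promoters in the table. TATAAA, on either strand, lay in 7 of the 38, 4 of them among the 5 in the cluster (MMP7, MMP8, MMP10 and MMP20), and in 10.7% of all. The core of the progestin response element, GNACA and TGTNC with 3 bases of any kind between, was found in 1 of the 38, ADAM8, at -186, and in 0.328% of all. MMP10 and ADAMTS12, which have an AP-1 match, were called lower with MPA in U1U2 and promoter cells. MMP10 was tested only through its vehicle libraries, so its direction was partly set by the filter. ADAM12 and ADAMTS6, which have none, were also called lower in these lines. Whether the motif goes with the direction of change was not tested. The 120 bases before the start are shown for the promoters with an AP-1 match and for ADAMTS2, which has none of the 3 motifs. AP-1 and TATAAA matches are in capitals.
MMP10 (chr11:102780629-102780748, minus strand): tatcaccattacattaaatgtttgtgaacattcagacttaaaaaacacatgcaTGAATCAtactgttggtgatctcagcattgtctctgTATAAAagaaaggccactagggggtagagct
MMP7 (chr11:102530748-102530867, minus strand): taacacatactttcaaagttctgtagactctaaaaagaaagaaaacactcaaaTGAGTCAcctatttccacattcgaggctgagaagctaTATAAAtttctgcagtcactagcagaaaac
MMP20 (chr11:102625333-102625452, minus strand): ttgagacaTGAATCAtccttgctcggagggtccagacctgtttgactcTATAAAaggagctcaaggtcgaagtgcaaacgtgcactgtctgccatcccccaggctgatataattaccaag
ADAMTS12 (chr5:33891991-33892110, minus strand): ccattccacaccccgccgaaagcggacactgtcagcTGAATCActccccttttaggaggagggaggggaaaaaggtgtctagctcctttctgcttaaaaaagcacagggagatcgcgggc
ADAMTS2 (chr5:179345462-179345581, minus strand): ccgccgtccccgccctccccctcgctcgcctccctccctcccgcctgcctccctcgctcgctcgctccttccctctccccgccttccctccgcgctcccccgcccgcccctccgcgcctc
In MMP7 and MMP10 the AP-1 match starts at the same distance, -67, and TATAAA at -30 and -31. In MMP20 these lie at -112 and -72, and the AP-1 match of ADAMTS12 is at -84. A match is a description of the letters and not a site of binding.

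MMP1 (chr11:102789920-102798160, minus strand) cleaves the fibrillar collagens. In vehicle it measured 29.5, 27.3 and 28.1 CPM in NT, 33.3, 40.6 and 36.3 CPM in U1U2 and 54.2, 45.3 and 46.2 CPM in promoter cells. With MPA it measured 4.72, 4.77 and 5.09 CPM in NT, 6.18, 5.97 and 6.41 CPM in U1U2 and 4.56, 4.03 and 4.88 CPM in promoter cells. No MPA library reached any vehicle library in any line, and the vehicle levels of the 3 lines did not overlap each other. The log2 fold change was -2.54 ± 0.11, adjusted p = 9.4e-11 in NT, -2.57 ± 0.11, adjusted p = 2.94e-11 in U1U2 and -3.44 ± 0.11, adjusted p = 8.01e-13 in promoter cells.

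The fall of MMP1 was larger in promoter than in NT cells, with a difference of log2 fold changes of -0.89 ± 0.15, adjusted p = 0.00498. Promoter cells started higher, with a vehicle difference from NT cells of 0.78 ± 0.10, adjusted p = 0.000196, while the MPA levels differed by -0.11 ± 0.12, adjusted p = 0.761. U1U2 cells did not pass the test against NT cells in vehicle (0.38 ± 0.10, adjusted p = 0.0751) or in their response (-0.02 ± 0.15, adjusted p = 0.969), and the response difference between promoter and U1U2 cells was -0.87 ± 0.15, adjusted p = 0.0633. The last passed with DESeq2 (adjusted p = 0.00106) and with GC and length offsets (adjusted p = 0.0327). The U1U2 vehicle difference passed with DESeq2 (adjusted p = 0.0239), with these offsets (adjusted p = 0.0455) and without U1U2 vehicle replicate 1 (adjusted p = 0.0325).

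Stromelysin 1, MMP3 (chr11:102835801-102843803, minus strand), cuts proteoglycans and basement membrane proteins and activates other MMPs. Its levels were 2.85, 2.14 and 1.90 CPM in NT vehicle, 4.28, 6.81 and 4.83 CPM in U1U2 vehicle and 5.63, 2.57 and 5.04 CPM in promoter vehicle. With MPA they were 0.649, 1.01 and 0.826 CPM, 0.750, 0.679 and 0.886 CPM and 0.678, 0.418 and 0.497 CPM in the same order. All MPA libraries stayed at or under 1.01 CPM and all vehicle libraries at or above 1.90 CPM. The log2 fold change was -1.43 ± 0.32, adjusted p = 0.00982 in NT, -2.77 ± 0.29, adjusted p = 2.31e-06 in U1U2 and -3.07 ± 0.31, adjusted p = 1.01e-06 in promoter cells. The response differences from NT cells, -1.34 ± 0.44, adjusted p = 0.372 for U1U2 and -1.64 ± 0.46, adjusted p = 0.0912 for promoter cells, did not pass. The promoter difference passed with DESeq2 (adjusted p = 0.0364), with no filter on low counts (adjusted p = 0.00599) and without promoter vehicle replicate 2 (adjusted p = 0.0202).

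In vehicle MMP3 was higher than in NT cells by 1.23 ± 0.27, adjusted p = 0.033 in U1U2 cells and by 0.99 ± 0.27, adjusted p = 0.0339 in promoter cells. Promoter vehicle replicate 2 (2.57 CPM) lay within the NT range. The U1U2 call was lost in 6 of 12 alternatives, in a fit of only the groups compared, with a replicate block and without NT vehicle replicates 2 or 3 or U1U2 vehicle replicates 2 or 3 (log2 fold change 1.01 to 1.30, adjusted p 0.0699 to 0.215). The promoter call was lost in 6 of 12 alternatives, in a fit of only the groups compared, with a replicate block and without NT vehicle replicates 2 or 3 or promoter vehicle replicates 1 or 3 (log2 fold change 0.78 to 0.99, adjusted p 0.0707 to 0.205).

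Stromelysin 2, MMP10 (chr11:102770503-102780628, minus strand), was close to the limit of detection, with 159 counts in all. Vehicle libraries held 11, 15 and 11 counts in NT, 18, 16 and 18 in U1U2 and 22, 3 and 28 in promoter cells, and MPA libraries 2, 2 and 2 in NT, 2, 2 and 2 in U1U2 and 3, 2 and 0 in promoter cells. Groups did not overlap in CPM within any line. The log2 fold change was -3.07 ± 0.55, adjusted p = 0.00149 in NT, -2.83 ± 0.53, adjusted p = 0.00124 in U1U2 and -3.10 ± 0.55, adjusted p = 0.000577 in promoter cells. MMP10 passed the filter through its vehicle libraries, so its place among the tested genes already depended on being higher there.

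**Figure D4:**
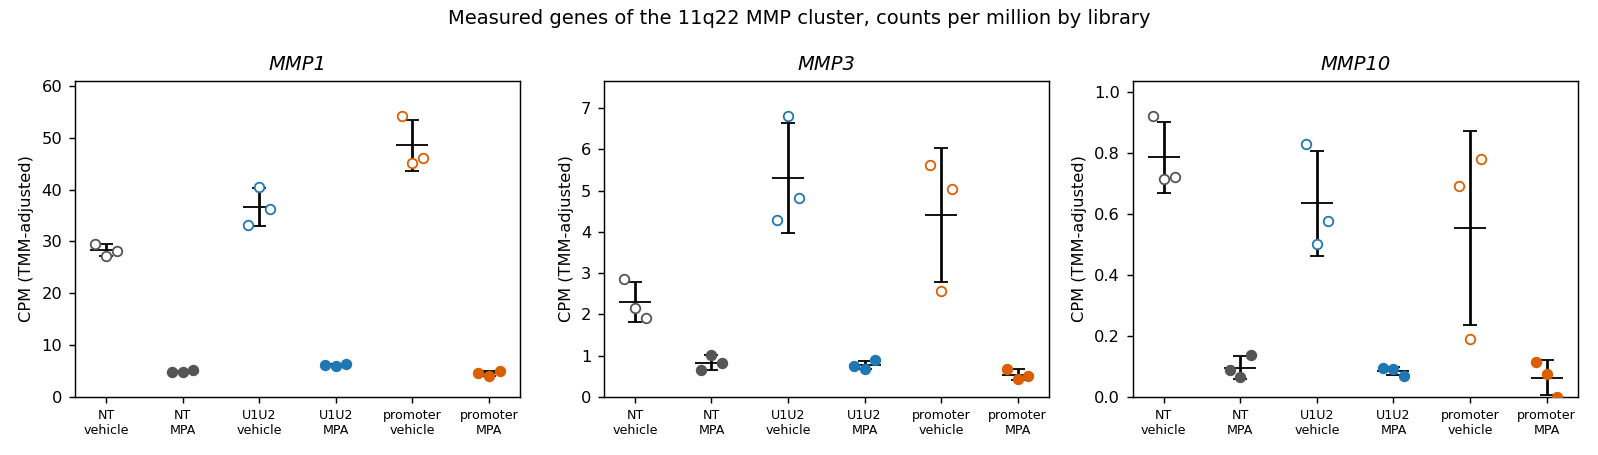
CPM (linear axes from 0) of MMP1, MMP3 and MMP10 in each of the 18 libraries by group; open points are vehicle and filled points MPA, with horizontal lines for the mean and bars for the standard deviation of 3 libraries. MMP1 lies between 27.3 and 54.2 CPM in vehicle and between 4.03 and 6.41 CPM with MPA.

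Summed over its 9 genes, the cluster fell from 31.5 ± 1.69 to 5.88 ± 0.258 CPM (SD, n = 3) in NT, from 42.9 ± 4.93 to 7.16 ± 0.276 CPM in U1U2 and from 53.8 ± 6.50 to 5.17 ± 0.462 CPM in promoter cells. Per length it was a small part of all MMP transcript: 6.55% ± 1.06 of the summed MMP RPKM in NT vehicle and 9.79% ± 0.842 in promoter vehicle, against 1.55% ± 0.141 and 1.58% ± 0.0941 with MPA. These are bulk samples, so fewer cells with a transcript and less of it per cell cannot be told apart. Of the leukocyte markers, PTPRC was tested and moved with the cluster: the 5 leukocyte markers summed to 3.50 to 5.53 CPM in vehicle libraries and 1.55 to 2.41 CPM with MPA, and the log2 fold change of PTPRC was -1.36, -1.10 and -1.12 in NT, U1U2 and promoter cells. CD3E and S100A8 were at 0, CD14 had at most 5 counts and ITGAM at most 1. Of 6 epithelial markers, which summed to 13.6 to 23.0 CPM, 4 were tested and 1 fell, EPCAM in promoter cells, at 3 to 34 counts per library. The part of these markers in the result was not tested. The antisense pseudogene WTAPP1 overlaps 7.61% of the exon bases of MMP1 and 1.56% of those of MMP3, and had at most 1 count in a library; the strand setting of the counting is not given in the sources used here.

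Outside 11q22, 13 MMP genes were in the table and 9 were tested. Under MPA 1 fell in NT cells (MMP16), 2 fell and 1 rose in U1U2 cells, and 2 fell and 1 rose in promoter cells (MMP2, MMP16 and MMP28 in both). The shares of all tested genes called lower were 3.48%, 6.22% and 8.40% in NT, U1U2 and promoter cells, and higher 2.44%, 5.44% and 6.63%. The median log2 fold change of the 9 was -0.01, 0.02 and -0.18. MMP2 and MMP14 together made up 83.8% to 92.6% of all MMP RPKM.

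The gelatinase MMP2 (chr16:55389700-55506691, plus strand) cuts denatured collagen and basement membrane collagen. It measured 1057, 732 and 659 CPM in NT vehicle and 506, 607 and 697 CPM in NT MPA, where the groups overlapped. In U1U2 cells it went from 729.6, 918 and 824 CPM to 462, 464 and 598 CPM, and in promoter cells from 930.2, 872 and 774 CPM to 553, 446 and 484 CPM. In these 2 lines every MPA library lay under every vehicle library. The log2 fold change was -0.70 ± 0.16, adjusted p = 0.00789 in U1U2 and -0.80 ± 0.16, adjusted p = 0.0022 in promoter cells. In NT cells it was -0.44 ± 0.16, adjusted p = 0.157, and -0.21 without NT vehicle replicate 1, the library with the highest MMP2. The NT fall of MMP2 was called with no filter on low counts (-0.42, adjusted p = 0.00337). It was also called with GC and length offsets (-0.51, adjusted p = 0.00324), and in no other alternative. The response differences from NT cells were -0.26 ± 0.23, adjusted p = 0.691 for U1U2 and -0.36 ± 0.23, adjusted p = 0.453 for promoter cells, neither past the threshold. MMP9, the other gelatinase, was at 0 counts throughout.

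Of the 6 membrane-type MMPs, 4 were tested. MMP14 (chr14:22836557-22849027, plus strand), which activates pro-MMP2 at the cell surface together with TIMP2, ranged from 193 to 317 CPM and overlapped between MPA and vehicle in every line (log2 fold changes -0.01 ± 0.17, -0.28 ± 0.17 and -0.35 ± 0.17 in NT, U1U2 and promoter cells, adjusted p = 0.991, 0.349 and 0.195). Its promoter fall was called with no filter on low counts (-0.37, adjusted p = 0.0122). A fit of only the groups compared also called it (-0.37, adjusted p = 0.0483). GC and length offsets called the fall in promoter (-0.32, adjusted p = 0.0233) and U1U2 cells (-0.34, adjusted p = 0.0207). MMP16 (chr8:88032009-88328025, minus strand), another transmembrane MMP, was the member of this class called lower in the main fit. It measured 63.7, 80.8 and 82.3 CPM in NT vehicle and 54.8, 47.3 and 44.2 CPM with MPA. In U1U2 cells it went from 71.8, 62.3 and 68.1 to 41.8, 42.6 and 37.2 CPM, and in promoter cells from 74.7, 79.1 and 72.4 to 37.9, 43.1 and 42.9 CPM. Each MPA group lay wholly under its vehicle group, with log2 fold changes of -0.63 ± 0.11, adjusted p = 0.000782 in NT, -0.73 ± 0.11, adjusted p = 9.24e-05 in U1U2 and -0.87 ± 0.11, adjusted p = 1.02e-05 in promoter cells. With GC and length offsets the promoter response of MMP16 differed from NT cells (-0.53, adjusted p = 0.00223). These offsets also called it lower than NT in MPA in U1U2 (-0.40, adjusted p = 0.000822) and promoter cells (-0.40, adjusted p = 0.000454). MMP15 (0.312 to 1.24 CPM) and MMP17 (0.131 to 0.716 CPM) were low and not called, and MMP24 (105 counts) and MMP25 (33 counts) were not tested.

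MMP28, epilysin, was the MMP that rose, from a very low level. Vehicle libraries held 3, 1 and 0 counts in NT, 0, 3 and 4 in U1U2 and 4, 4 and 2 in promoter cells, and MPA libraries 3, 12 and 4 in NT, 13, 17 and 25 in U1U2 and 13, 14 and 9 in promoter cells. The groups were apart in the U1U2 line (3.12 ± 0.56, adjusted p = 0.000795) and the promoter line (1.93 ± 0.56, adjusted p = 0.0255) and overlapped in NT cells (1.64 ± 0.79, adjusted p = 0.306). The NT value became 3.09 (adjusted p = 0.088) without NT vehicle replicate 1. It passed the filter through its MPA libraries. The promoter call was lost in 4 of 12 alternatives, without promoter MPA replicates 1 or 2 or promoter vehicle replicates 1 or 3 (log2 fold change 1.47 to 1.96, adjusted p 0.0665 to 0.114). Stromelysin 3 (MMP11, 0.533 to 3.60 CPM), MMP19 (28.6 to 44.5 CPM) and MMP21 (0.253 to 0.909 CPM) were not called in any contrast. For MMP11 the NT value of -1.01 ± 0.39 became -0.24 without NT vehicle replicate 1, which held 3.60 CPM against 1.14 and 0.917 CPM in the other NT vehicle libraries. Among the alternatives, GC and length offsets called MMP11 lower in NT (-1.10, adjusted p = 0.0193) and promoter cells (-0.97, adjusted p = 0.0183). The promoter fall was also called with no filter on low counts (-1.02, adjusted p = 0.0185) and in a fit of only the groups compared (-1.03, adjusted p = 0.0128). MMP26 was at 0 counts.

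Of the 19 ADAMTS genes, 13 were tested. MPA raised 2 and lowered 3 in NT cells, raised 4 and lowered 4 in U1U2 cells, and raised 3 and lowered 5 in promoter cells, with medians of -0.19, -0.07 and -0.17. Among all tested genes it raised 2.44%, 5.44% and 6.63% and lowered 3.48%, 6.22% and 8.40% in NT, U1U2 and promoter cells. Summed over the family, RPKM went from 137 ± 7.05 to 188 ± 12.2 (SD, n = 3) in NT, from 132 ± 4.71 to 207 ± 20.7 in U1U2 and from 115 ± 9.55 to 203 ± 4.67 in promoter cells. ADAMTS1 held 51.2% ± 1.04 of that sum in NT vehicle and 76.6% ± 2.32 in NT MPA, while the share of ADAMTS5 went from 34.0% ± 0.537 to 9.98% ± 2.22. ADAMTS2 held 5.34% ± 0.396 in promoter vehicle and 16.1% ± 0.287 in promoter MPA.

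ADAMTS1 and ADAMTS5, both proteoglycanases that cut versican and aggrecan, are neighbours on chromosome 21, 72.5 kb apart and on the minus strand (chr21:26835747-26845409 and chr21:26917912-26966513). They moved in opposite directions in every line. ADAMTS1 measured 464, 491 and 533 CPM in NT vehicle and 988, 943 and 1131 CPM with MPA. In U1U2 cells it went from 457, 498 and 489 to 1230.1, 1022 and 984 CPM. In promoter cells it went from 443, 501 and 406 to 1065, 1018 and 1035 CPM. The lowest MPA library lay at 943 CPM and the highest vehicle library at 533 CPM. The log2 fold changes were 1.04 ± 0.10, adjusted p = 2.3e-06 in NT, 1.16 ± 0.10, adjusted p = 2.38e-07 in U1U2 and 1.21 ± 0.10, adjusted p = 1.18e-07 in promoter cells, and the 3 lines did not differ beyond the test in response (the largest difference, promoter against NT, was 0.17 ± 0.14, adjusted p = 0.578).

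ADAMTS5 measured 397, 430.5 and 439 CPM in NT, 431, 294 and 357 CPM in U1U2 and 240.1, 294 and 267 CPM in promoter cells in vehicle. With MPA the values were 193, 177 and 136 CPM in NT, 154, 139 and 127 CPM in U1U2 and 112, 113 and 104 CPM in promoter cells. Vehicle and MPA did not overlap in any line, with log2 fold changes of -1.32 ± 0.14, adjusted p = 3.79e-06 in NT, -1.36 ± 0.14, adjusted p = 1.2e-06 in U1U2 and -1.28 ± 0.14, adjusted p = 1.97e-06 in promoter cells. ADAMTS5 was also lower in promoter than in NT cells, with log2 differences of -0.66 ± 0.13, adjusted p = 0.00522 in vehicle and -0.62 ± 0.14, adjusted p = 0.0102 in MPA, with no overlap in either medium. The MPA call was lost in 2 of 12 alternatives, without NT MPA replicate 1 or promoter MPA replicate 3 (log2 fold change -0.57 to -0.50, adjusted p 0.0721 to 0.0779). Per length, ADAMTS1 and ADAMTS5 stood at 70.2 ± 4.94 and 46.6 ± 2.49 RPKM in NT vehicle and at 144 ± 13.9 and 18.6 ± 3.26 RPKM in NT MPA.

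The other proteoglycanases were low. ADAMTS4 measured 2.76, 2.86 and 2.69 CPM in NT, 4.05, 4.03 and 4.44 CPM in U1U2 and 6.79, 4.27 and 4.79 CPM in promoter cells in vehicle, and 3.55, 4.71 and 3.72 CPM in NT, 3.33, 3.89 and 5.62 CPM in U1U2 and 5.35, 4.11 and 4.74 CPM in promoter cells with MPA. All promoter vehicle libraries lay above all NT vehicle libraries (0.94 ± 0.22, adjusted p = 0.0121), and MPA against vehicle did not pass the test in any line. That call was lost in 3 of 12 alternatives, in a fit of only the groups compared and without NT vehicle replicate 2 or promoter vehicle replicate 1 (log2 fold change 0.71 to 0.96, adjusted p 0.0512 to 0.101). ADAMTS9 (0.251 to 1.12 CPM), tested only through its MPA libraries, was called higher in U1U2 cells (1.07 ± 0.32, adjusted p = 0.0334), a call lost in 7 of 12 alternatives, with DESeq2, with no filter on low counts, in a fit of only the groups compared, with a replicate block and without U1U2 MPA replicate 3 or U1U2 vehicle replicates 1 or 2 (log2 fold change 0.72 to 1.10, adjusted p 0.0525 to 0.238). ADAMTS15 (0.601 to 1.92 CPM) was higher in promoter than in U1U2 vehicle (1.09 ± 0.22, adjusted p = 0.0191) and fell with MPA in promoter cells (-0.69 ± 0.21, adjusted p = 0.0351). The first of these was lost in 5 of 12 alternatives, in a fit of only the groups compared and without promoter vehicle replicates 1 or 3 or U1U2 vehicle replicates 2 or 3 (log2 fold change 1.01 to 1.09, adjusted p 0.106 to 0.148), and the second in 9 of 12 alternatives, with DESeq2, with no filter on low counts, in a fit of only the groups compared, with a replicate block and without promoter MPA replicates 1, 2 or 3 or promoter vehicle replicates 1 or 3 (log2 fold change -0.78 to -0.54, adjusted p 0.0552 to 0.176). ADAMTS8 (3 counts) and ADAMTS20 (13 counts) were not tested.

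Among the procollagen N-proteinases, which remove the amino-terminal propeptides of fibrillar procollagens, ADAMTS2 (chr5:179110851-179345430, minus strand) rose in all 3 lines. Vehicle libraries measured 57.5, 54.3 and 52.0 CPM in NT, 58.1, 68.1 and 68.5 CPM in U1U2 and 56.0, 59.1 and 46.5 CPM in promoter cells. With MPA they measured 100.3, 116 and 129.8 CPM in NT, 239, 198 and 247 CPM in U1U2 and 299, 278 and 280.0 CPM in promoter cells. In MPA the 3 lines did not overlap, with NT lowest and promoter highest. The log2 fold changes were 1.08 ± 0.11, adjusted p = 4.95e-06 in NT, 1.81 ± 0.11, adjusted p = 3.17e-09 in U1U2 and 2.41 ± 0.12, adjusted p = 8.2e-11 in promoter cells. The response exceeded that of NT cells by 1.33 ± 0.16, adjusted p = 0.000191 in promoter cells, which passed, and by 0.73 ± 0.16, adjusted p = 0.0643 in U1U2 cells, which did not, and the promoter and U1U2 responses differed by 0.60 ± 0.16, adjusted p = 0.316. Within MPA, ADAMTS2 was above NT cells by 0.98 ± 0.11, adjusted p = 4.77e-05 in U1U2 and by 1.31 ± 0.11, adjusted p = 6.58e-07 in promoter cells, while vehicle levels differed by 0.25 ± 0.11, adjusted p = 0.286 and -0.02 ± 0.11, adjusted p = 0.938. These ADAMTS2 calls held in every alternative run. The U1U2 response did pass against NT cells with DESeq2 (0.74, adjusted p = 0.00369) and with no filter on low counts (0.71, adjusted p = 0.00305). With GC and length offsets it also passed (0.83, adjusted p = 0.04).

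**Figure D5:**
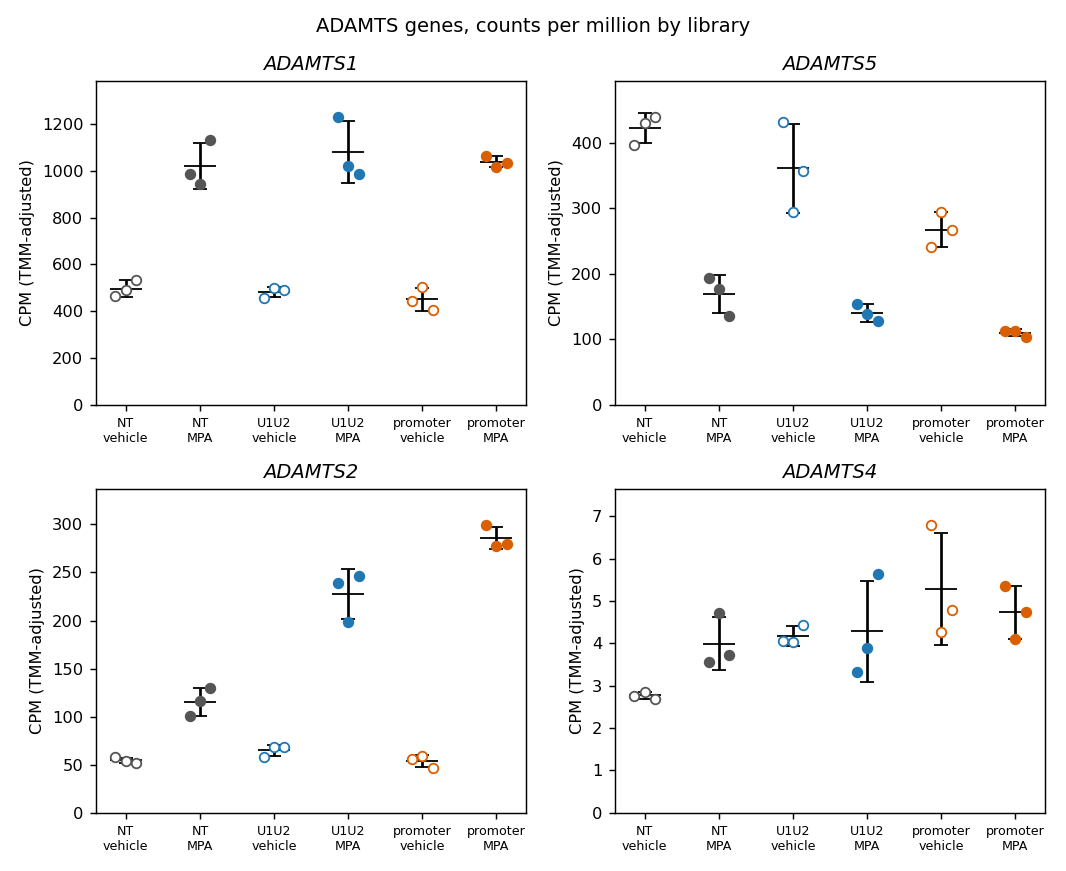
CPM (linear axes from 0) of ADAMTS1, ADAMTS5, ADAMTS2 and ADAMTS4 in each library by group; open points are vehicle, filled points MPA, lines the mean and bars the standard deviation of 3 libraries. ADAMTS1 and ADAMTS2 are higher and ADAMTS5 lower with MPA in each line, and ADAMTS2 with MPA lies between 100.3 and 129.8 CPM in NT and between 278 and 299 CPM in promoter cells.

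ADAMTS14 (0.0469 to 0.837 CPM), a close relative of ADAMTS2, was not called in any contrast, and ADAMTS3 (46 counts) was not tested.

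Of the remaining 9 ADAMTS genes, 6 were tested. ADAMTS6, which acts on microfibril and cell-surface proteins, measured 69.7, 77.3 and 79.5 CPM in NT, 95.3, 82.7 and 86.5 CPM in U1U2 and 88.9, 90.1 and 88.5 CPM in promoter vehicle, and 65.8, 62.2 and 60.8 CPM in NT, 65.5, 65.0 and 62.9 CPM in U1U2 and 55.8, 61.6 and 56.4 CPM in promoter cells with MPA. Groups were apart in every line, with log2 fold changes of -0.26 ± 0.07, adjusted p = 0.0458 in NT, -0.45 ± 0.07, adjusted p = 0.000335 in U1U2 and -0.62 ± 0.07, adjusted p = 8.06e-06 in promoter cells. The NT call was lost in 8 of 12 alternatives, with no filter on low counts, in a fit of only the groups compared, with a replicate block, with RLE size factors and without NT MPA replicates 2 or 3 or NT vehicle replicates 2 or 3 (log2 fold change -0.27 to -0.23, adjusted p 0.0529 to 0.46). The response differences from NT cells did not pass (adjusted p = 0.531 and 0.11 for U1U2 and promoter cells). With GC and length offsets the promoter difference passed (-0.42, adjusted p = 0.00397).

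ADAMTS12, which cuts cartilage oligomeric matrix protein, measured 37.6, 33.5 and 33.6 CPM in NT vehicle and 28.1, 29.7 and 32.5 CPM with MPA (-0.21 ± 0.09, adjusted p = 0.192). In U1U2 cells it went from 42.7, 46.4 and 44.9 to 30.5, 29.9 and 29.2 CPM (-0.58 ± 0.08, adjusted p = 9.29e-05), and in promoter cells from 40.3, 42.4 and 36.2 to 25.7, 27.3 and 26.1 CPM (-0.59 ± 0.08, adjusted p = 6.68e-05). Each MPA library lay under each vehicle library of its line. In vehicle it was higher in U1U2 than in NT cells (0.36 ± 0.08, adjusted p = 0.0467), a call lost in 9 of 12 alternatives, with GC and length offsets, with no filter on low counts, in a fit of only the groups compared, with a replicate block, with RLE size factors and without NT vehicle replicates 2 or 3 or U1U2 vehicle replicates 2 or 3 (log2 fold change 0.26 to 0.41, adjusted p 0.0526 to 0.262). ADAMTS7, its closest relative in domain make-up, went from 2.63, 2.25 and 2.01 to 2.86, 4.39 and 7.26 CPM in U1U2 cells (1.10 ± 0.30, adjusted p = 0.0218) and from 2.61, 2.20 and 2.59 to 5.72, 3.54 and 4.74 CPM in promoter cells (0.91 ± 0.30, adjusted p = 0.0499). NT cells had 4.02, 2.53 and 2.10 CPM in vehicle and 2.77, 4.71 and 3.65 CPM in MPA (0.40 ± 0.32, adjusted p = 0.573), with overlap. The NT value was 0.17 without NT MPA replicate 2, 0.22 without NT vehicle replicate 3 and 0.68 without NT vehicle replicate 1. The U1U2 call of ADAMTS7 was lost in 4 of 12 alternatives, in a fit of only the groups compared and without U1U2 MPA replicate 3 or U1U2 vehicle replicates 2 or 3 (log2 fold change 0.66 to 1.09, adjusted p 0.0693 to 0.164). Its promoter call was lost in 6 of 12 alternatives, with a replicate block and without promoter MPA replicates 1 or 3 or promoter vehicle replicates 1, 2 or 3 (log2 fold change 0.73 to 0.95, adjusted p 0.0763 to 0.181).

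ADAMTS19 was low (0.151 to 1.29 CPM, 256 counts in all) and was tested only through its vehicle libraries, 8 of which reached the filter against 1 MPA library. Its log2 fold changes under MPA were -1.52 ± 0.32, adjusted p = 0.00575 in NT, -1.68 ± 0.31, adjusted p = 0.00121 in U1U2 and -1.28 ± 0.35, adjusted p = 0.0172 in promoter cells, where promoter vehicle replicate 2 lay within the MPA range. The NT call was lost in 1 of 12 alternatives, without NT MPA replicate 2 (log2 fold change -1.34, adjusted p 0.0539). The promoter call was lost in 4 of 11 alternatives, with DESeq2 and without promoter MPA replicate 1 or promoter vehicle replicates 1 or 3 (log2 fold change -1.28 to -1.02, adjusted p 0.0529 to 0.106). ADAMTS10 (0.753 to 2.01 CPM) and ADAMTS13, the von Willebrand factor protease (0.131 to 0.784 CPM), were not called in any contrast, and ADAMTS16, ADAMTS17 and ADAMTS18 were at 0 counts.

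Of the 22 ADAM symbols, 13 were tested and none was called under MPA in NT cells (DESeq2 called 0, and 2 had an unadjusted p under 0.05 in edgeR). GC and length offsets called ADAM9 higher (0.30, adjusted p = 0.0406) and ADAM11 lower (-0.96, adjusted p = 0.0471) in NT cells. Neither response was called different between lines. In U1U2 and promoter cells 1 rose (ADAM9) and 2 fell (ADAM11 and ADAM12), the same 3 genes in both. The medians were 0.02, -0.04 and -0.21. Over all tested genes, 5.44% and 6.63% were called higher and 6.22% and 8.40% lower in U1U2 and promoter cells.

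ADAM9, a sheddase with a broad range of substrates, measured 1249, 1304 and 1398 CPM in NT vehicle and 1595, 1473 and 1641 CPM with MPA (0.25 ± 0.11, adjusted p = 0.236). In U1U2 cells it went from 1294, 1224 and 1209 to 1839.7, 1637 and 1498 CPM (0.42 ± 0.11, adjusted p = 0.0157), and in promoter cells from 1172, 1545 and 1143 to 1657, 1682 and 1754 CPM (0.40 ± 0.11, adjusted p = 0.0165). MPA libraries lay above the vehicle libraries of their line in all 3 lines. The U1U2 call was lost in 5 of 12 alternatives, in a fit of only the groups compared and without U1U2 MPA replicates 1 or 2 or U1U2 vehicle replicates 2 or 3 (log2 fold change 0.34 to 0.42, adjusted p 0.0553 to 0.0809). The promoter call was lost in 4 of 12 alternatives, in a fit of only the groups compared and without promoter MPA replicate 3 or promoter vehicle replicates 1 or 3 (log2 fold change 0.33 to 0.38, adjusted p 0.0642 to 0.109).

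ADAM12, which sheds growth factors and is abundant in mesenchymal cells, measured 883, 841 and 827 CPM in NT vehicle and 726, 721 and 847 CPM with MPA, where the groups overlapped (-0.15 ± 0.09, adjusted p = 0.435). It went from 976, 966 and 1015 to 722, 697 and 663 CPM in U1U2 cells (-0.51 ± 0.09, adjusted p = 0.000924) and from 960.3, 1039 and 798 to 599, 605 and 606 CPM in promoter cells (-0.63 ± 0.09, adjusted p = 8.23e-05). In these 2 lines the groups were apart. The response differences from NT cells were -0.35 ± 0.13, adjusted p = 0.44 for U1U2 and -0.47 ± 0.13, adjusted p = 0.0835 for promoter cells, neither past the threshold. The promoter difference passed with DESeq2 (adjusted p = 0.0309) and with no filter on low counts (adjusted p = 0.0308). It also passed with GC and length offsets (adjusted p = 0.0222) and without promoter vehicle replicate 3 (adjusted p = 0.0261). In MPA, ADAM12 was lower in promoter than in NT cells (-0.34 ± 0.09, adjusted p = 0.0418), a call lost in 10 of 12 alternatives, with no filter on low counts, in a fit of only the groups compared, with a replicate block, with RLE size factors and without NT MPA replicates 1, 2 or 3 or promoter MPA replicates 1, 2 or 3 (log2 fold change -0.38 to -0.26, adjusted p 0.0522 to 0.219).

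ADAM33, a relative of ADAM12 also known from mesenchymal cells, was not called under MPA in any line. It measured 76.6, 66.0 and 64.1 CPM in NT, 71.4, 72.8 and 70.3 CPM in U1U2 and 58.7, 50.2 and 59.8 CPM in promoter vehicle, and 70.7, 87.4 and 70.4 CPM in NT, 56.1, 51.8 and 79.5 CPM in U1U2 and 53.8, 41.3 and 43.0 CPM in promoter cells with MPA. Promoter cells lay under NT cells in both media, and the difference passed in MPA (-0.73 ± 0.14, adjusted p = 0.00491) and not in vehicle (-0.29 ± 0.14, adjusted p = 0.262).

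ADAM11, which lacks a catalytic zinc site, was low (0.181 to 2.26 CPM) and fell in U1U2 (-1.87 ± 0.37, adjusted p = 0.00196) and promoter cells (-1.37 ± 0.39, adjusted p = 0.0231). NT cells gave -0.84 ± 0.35, adjusted p = 0.222, and -0.48 (adjusted p = 0.444) without NT vehicle replicate 1. The promoter call was lost in 4 of 12 alternatives, without promoter MPA replicates 1 or 2 or promoter vehicle replicates 1 or 3 (log2 fold change -1.41 to -1.28, adjusted p 0.0524 to 0.0942). The 2 best known sheddases were not called in any contrast: ADAM10, which cuts Notch receptors, ranged from 583 to 749 CPM, and ADAM17, which releases tumour necrosis factor and amphiregulin, from 77.3 to 101 CPM. Their log2 fold changes under MPA lay between -0.10 and 0.15. The overlapping gene IAH1 shares part of the 13.6% of ADAM17 exon bases that other genes also cover, and was not called under MPA in any line (adjusted p 0.458 to 0.645). ADAM19 (140.4 to 203 CPM), ADAM23 (27.1 to 36.6 CPM), ADAM15 (4.45 to 16.6 CPM), ADAM22 (0.543 to 1.47 CPM), ADAM32 (0.503 to 1.36 CPM), ADAM8 (0.323 to 0.954 CPM) and ADAM21 (0.131 to 0.879 CPM) were not called in any contrast. ADAM20 had 62 counts, ADAM28 had 3, ADAM7, ADAM29 and ADAM30 had 1 each, and ADAM2, ADAM5, ADAM6 and ADAM18, several of them known from testis, were at 0.

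Of the 4 inhibitors, 1 was called higher with MPA in NT cells, 1 in U1U2 cells and none in promoter cells. The matching shares of all tested genes called higher were 2.44%, 5.44% and 6.63%. DESeq2 called 2 inhibitors in NT, 1 in U1U2 and 1 in promoter cells. In promoter cells 2 had an unadjusted p under 0.05 in edgeR. TIMP2 (chr17:78852977-78925387, minus strand) held 73.2% to 81.7% of the summed TIMP RPKM. It measured 2313, 1845 and 1848 CPM in NT, 1726, 1876 and 1862 CPM in U1U2 and 1803, 2078 and 1500.2 CPM in promoter vehicle. With MPA it measured 1704, 1696 and 2269.7 CPM in NT, 1854, 1408 and 1436 CPM in U1U2 and 1459.7, 1404 and 1433 CPM in promoter cells. NT vehicle replicate 1 was the highest of all 18 libraries. Promoter MPA libraries lay under promoter vehicle libraries, but no contrast was called (MPA: -0.08 ± 0.14, -0.22 ± 0.14 and -0.32 ± 0.14 in NT, U1U2 and promoter cells, adjusted p = 0.816, 0.389 and 0.146). With no filter on low counts, TIMP2 was called lower with MPA in promoter cells (-0.34, adjusted p = 0.0159). In MPA it was then also lower in promoter than in NT cells (-0.39, adjusted p = 0.00938).

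TIMP1 (chrX:47582313-47586789, plus strand), the classical inhibitor of MMP1 and MMP3, varied widely between replicates, with 64.2, 37.6 and 31.1 CPM in NT, 34.0, 61.2 and 51.2 CPM in U1U2 and 70.2, 56.2 and 49.8 CPM in promoter vehicle. With MPA it measured 40.1, 56.4 and 62.1 CPM in NT, 50.2, 39.2 and 56.9 CPM in U1U2 and 57.9, 39.3 and 40.8 CPM in promoter cells. Groups overlapped in every contrast, and the MPA values were 0.26 ± 0.26, 0.00 ± 0.26 and -0.35 ± 0.26. With no filter on low counts, TIMP1 was called lower with MPA in promoter cells (-0.37, adjusted p = 0.0394). It was then also higher in promoter than in NT vehicle (0.46, adjusted p = 0.00833). The promoter response differed from NT in that run (-0.65, adjusted p = 0.0149).

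TIMP3 (chr22:32801701-32863043, plus strand), which binds to the matrix and also inhibits ADAM17 and several ADAMTS enzymes, measured 259, 261 and 241 CPM in NT, 215, 198 and 209 CPM in U1U2 and 217, 231 and 217 CPM in promoter vehicle, and 288, 295 and 290.0 CPM in NT, 246, 260.2 and 254 CPM in U1U2 and 254, 249.6 and 243 CPM in promoter cells with MPA. MPA libraries lay above vehicle libraries in every line. The change passed in U1U2 cells (0.29 ± 0.06, adjusted p = 0.00471) and not in NT (0.20 ± 0.06, adjusted p = 0.0911) or promoter cells (0.17 ± 0.06, adjusted p = 0.0954). DESeq2 called the rise in NT (0.19, adjusted p = 0.0173) and promoter cells (0.17, adjusted p = 0.019). GC and length offsets also called it in promoter cells (0.20, adjusted p = 0.0225). The response of TIMP3 was not called different between lines. In vehicle TIMP3 was lower in U1U2 than in NT cells (-0.29 ± 0.06, adjusted p = 0.0337). The U1U2 MPA call was lost in 2 of 12 alternatives, with no filter on low counts and in a fit of only the groups compared (log2 fold change 0.28, adjusted p 0.111 to 0.127). The U1U2 vehicle call was lost in 7 of 12 alternatives, with no filter on low counts, in a fit of only the groups compared, with a replicate block and without NT vehicle replicates 1 or 2 or U1U2 vehicle replicates 2 or 3 (log2 fold change -0.30 to -0.25, adjusted p 0.0686 to 0.342). DESeq2 also called TIMP3 lower in promoter than in NT cells in vehicle (-0.20, adjusted p = 0.00769) and MPA (-0.22, adjusted p = 0.00335). It called U1U2 lower than NT cells in MPA (-0.19, adjusted p = 0.0242). GC and length offsets called the promoter vehicle difference too (-0.23, adjusted p = 0.0191).

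TIMP4 (chr3:12153051-12159351, minus strand) was the least abundant, with 2.59, 1.57 and 1.31 CPM in NT vehicle and 2.64, 3.95 and 5.09 CPM in NT MPA, with no overlap (1.11 ± 0.30, adjusted p = 0.0308). It went from 1.89, 2.31 and 2.56 to 3.56, 2.17 and 2.22 CPM in U1U2 cells (0.22 ± 0.27, adjusted p = 0.697) and from 2.86, 2.57 and 1.70 to 2.98, 3.04 and 3.03 CPM in promoter cells (0.36 ± 0.27, adjusted p = 0.441). The NT call was lost in 6 of 12 alternatives, in a fit of only the groups compared, with a replicate block and without NT MPA replicates 2 or 3 or NT vehicle replicates 2 or 3 (log2 fold change 0.90 to 1.12, adjusted p 0.0526 to 0.166). TIMP4 lies within SYN2 on the opposite strand, and SYN2 covers 10.3% of its exon bases; SYN2 measured 0.418 to 1.17 CPM. Under MPA it rose in promoter cells, by 0.89 ± 0.28 on the log2 scale (adjusted p = 0.036). Its log2 fold change was 0.51 ± 0.30 in NT (adjusted p = 0.433) and 0.52 ± 0.30 in U1U2 cells (adjusted p = 0.329). Its part in the TIMP4 values was not tested. TIMP1 and TIMP3 lie within SYN1 and SYN3, which had at most 15 and 6 counts in a library.

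Genes that act with these proteases were counted from lists chosen with earlier results known. For all the lists below, 2.44%, 5.44% and 6.63% of all tested genes were called higher with MPA in NT, U1U2 and promoter cells. The shares called lower were 3.48%, 6.22% and 8.40%. Of the 15 activators and cell-surface regulators, 12 were tested; 2 rose and 2 fell in NT cells, and 3 rose and 3 fell in each of the other lines. Those named changed by at least 1 on the log2 scale in a line. Tissue plasminogen activator, PLAT, rose by 0.45 ± 0.12, 1.11 ± 0.12 and 1.33 ± 0.12 in NT, U1U2 and promoter cells (adjusted p at most 0.0263), and the rise was larger in promoter than in NT cells (0.88 ± 0.17, adjusted p = 0.00941). Urokinase, PLAU, changed by -0.19 ± 0.19 in NT cells (adjusted p = 0.654) and fell in U1U2 (-0.73 ± 0.18, adjusted p = 0.0137) and promoter cells (-1.32 ± 0.18, adjusted p = 3.88e-05). Its promoter response also differed from NT (-1.13 ± 0.26, adjusted p = 0.034).

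None of the 8 tested of the 9 escorts of ADAM10 and ADAM17 was called in any line under MPA. In either direction, 5.93%, 11.7% and 15.0% of all tested genes were called in NT, U1U2 and promoter cells. Of the 13 ADAMTS-like and BMP1-family genes, 8 were tested; 2, 4 and 3 rose in NT, U1U2 and promoter cells and none fell. Papilin, PAPLN, a matrix protein with ADAMTS-like domains, rose from 1.41 to 10.0 CPM in NT cells, with log2 fold changes of 2.82 ± 0.23, 3.28 ± 0.23 and 3.31 ± 0.23 in NT, U1U2 and promoter cells (adjusted p at most 2.33e-07). Of 15 substrates 11 were tested; 4, 5 and 6 rose in NT, U1U2 and promoter cells and 0, 1 and 1 fell. The ADAM17 substrate AREG, amphiregulin, rose in U1U2 (1.26 ± 0.38, adjusted p = 0.0364) and promoter cells (2.00 ± 0.39, adjusted p = 0.00124) from vehicle means of 0.276 and 0.221 CPM. These means lie under the 0.437 CPM of the filter. AREG may have been tested only through its MPA libraries, and its direction may have been partly set by the filter.

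Of the 13 AP-1 and ETS transcription factor genes, all tested, 1 rose in NT cells, 4 rose and 1 fell in U1U2 cells, and 4 rose and 2 fell in promoter cells. FOS, a subunit of AP-1, rose from 0.466 to 2.95 CPM in U1U2 (2.61 ± 0.26, adjusted p = 1.44e-06) and from 0.520 to 2.19 CPM in promoter cells (2.10 ± 0.27, adjusted p = 1.83e-05), and changed by -0.25 ± 0.38 in NT cells (adjusted p = 0.812). The response of FOS differed from NT cells in both lines (2.86 ± 0.48, adjusted p = 0.0156, and 2.35 ± 0.48, adjusted p = 0.015).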

How the data were processed

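Poly(A) RNA libraries of THESC cells (18 libraries in 6 groups of 3) were made with a stranded kit, per the labels' protocols. The authors deposited raw counts per gene for 78724 Ensembl genes, which were used for every result. A deposited table of log2 CPM values covers 10402 genes, 24 of them members, and was not used for tests. Per the submitters' processing notes, STAR 2.6.0c, edgeR 4.2.2, R 4.4.1 and hg38 were used; the counter and its strand setting are not given in the sources used here.

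Counts were analysed in R 4.3.3 with edgeR 4.0.16 (limma 3.58.1). Genes passing filterByExpr (count minimum 10) were tested: 15558 genes, with totals of 11932474 to 33418643 counts per library and TMM normalization. One quasi-likelihood fit over the 6 groups gave 12 contrasts, each with Benjamini-Hochberg adjustment over all tested genes and a threshold of 0.05. The common biological coefficient of variation was 0.129. Standard errors are the log2 fold change divided by the root of its F statistic. CPM uses TMM-scaled library sizes, and RPKM divides CPM by the union exon length of GENCODE 29, matched by identifier for 67 of the 68 rows. Promoters came from RefSeq (GRCh38.p14), and 38 of 67 symbols matched. The procedure was tested on simulated data.

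The alternatives were RLE size factors, no filter, DESeq2 1.42.0, a fit of only the groups compared, a replicate block, leaving out each library, and, added after seeing the data, offsets for GC content and length. Members and lists were chosen with earlier results of these data known. Every member may be named; those called at a mean log2 CPM of at least 1, the tested 11q22 genes and the TIMPs are given in each library, and partner genes are named where they passed with a log2 fold change of at least 1 under MPA. A partner gene that meets this rule is not reported here. All samples carry the same batch label, so no value within batches could be given. No pair of replicates had counts as close as sampling noise alone would give, so each library was kept as 1 sample.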

Additional observations from a re-analysis of the deposited data

Results flagged for a closer look

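The MPA response differed between promoter and NT cells for 2 members by the test of the difference itself (edgeR quasi-likelihood test, adjusted over 15558 genes). For ADAMTS2 the log2 fold change was larger by 1.33 (adjusted p = 0.000191), with all 3 promoter MPA libraries above all 3 NT MPA libraries and overlapping vehicle levels. For MMP1 the promoter minus NT difference was -0.89 (adjusted p = 0.00498), with promoter vehicle libraries above NT vehicle libraries and overlapping MPA levels. Both held in every alternative run.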

How the results depend on the processing

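Of the 60 calls of members over the 12 contrasts, 39 held under every alternative run, 21 were lost under at least 1 and 0 changed sign. A further 46 were gained somewhere. For members called under MPA, leaving out 1 library gave 7 to 11 in NT (10 with all), 15 to 18 in U1U2 (18 with all) and 11 to 16 in promoter cells (17 with all). Between lines the range was 0 to 4 for U1U2 and 2 to 5 for promoter cells against NT vehicle, 0 to 1 for promoter against U1U2 vehicle, and 2 to 3 for promoter against NT MPA. With no filter on low counts, 5 responses differed between promoter and NT (2 with the filter) and 1 between U1U2 and NT (0), 2 members differed between promoter and U1U2 vehicle (1) and 1 between U1U2 and NT vehicle (3). DESeq2 gave 4, 1 and 1 for the 3 differences of responses (promoter minus NT, promoter minus U1U2, U1U2 minus NT), 2 for promoter against U1U2 vehicle and 2 for U1U2 against NT MPA (1). Fitting only the groups compared gave 2 for promoter against NT vehicle (4), 0 for promoter against U1U2 vehicle and 0 for U1U2 against NT vehicle. GC and length offsets, added after seeing the data, gave 6, 1 and 1 for the differences of responses, 7 for promoter against NT MPA (4), 10 against NT vehicle, 3 for promoter against U1U2 vehicle and 2 for U1U2 against NT MPA. The cause was not tested.

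The replicate numbers were not taken to pair the samples: in none of the 9 comparisons of 2 groups did every same-numbered pair correlate over 0.1. Of pairs of groups not compared directly, NT vehicle and promoter MPA, which both enter the promoter minus NT response, did so (0.138 to 0.367). In the 9 comparisons, 0 to 4 of 6 libraries correlated best with their own number. With a replicate block, 8, 17 and 15 members were called under MPA in NT, U1U2 and promoter cells, and 0 between U1U2 and NT vehicle (3 without the block).

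Depth limits the 14 tested members under 1 CPM: a gene at 0 counts in a library could still hold up to 3 counts' worth of transcript, which covers counting error only.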
